A study of Mus musculus with 2 samples.

Results

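The transcript levels of 10 genes of muscle progenitors, muscle differentiation and the response of muscle to injury, denervation or stretch were compared between PGC-1β(i)skm-/- and control gastrocnemius muscle. The genes are Pax7, Pax3, Myf5, Myod1, Myog, Myf6, Runx1, Ncam1, Ankrd1 and Ankrd2, and they are 10 of 19936 nuclear genes with a name on the arrays used. They were chosen by name for their roles, with earlier results of these data known, so that counts over them are descriptive. In PGC-1β(i)skm-/- mice, tamoxifen activates a Cre-ERT2 recombinase, expressed from human skeletal actin regulatory elements in myofibres, which removes exon 5 of both floxed PGC-1β alleles. The mutant mice were male HSA-Cre-ERT2(tg/0)/PGC-1β L2/L2 animals, and the controls were male HSA-Cre-ERT2(0/0)/PGC-1β L2/L2 littermates, which carry the same floxed alleles but no transgene, although their sample label reads wild-type. All mice were on a C57BL/6 background, were given a daily dose of 1 mg tamoxifen on 5 days, starting at the age of 7 weeks, and were analysed at 8 weeks. Each genotype is represented by 1 array hybridized with RNA pooled from 3 mice, so that no value below has an error and no test between genotypes was possible. The effect of the transgene itself cannot be told apart from that of the deletion.

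Skeletal muscle grows and is repaired by satellite cells, which lie beside the myofibres and express the paired box factor Pax7, and in some muscles its relative Pax3. When they are activated, the basic helix-loop-helix factors Myf5 and MyoD commit them to the muscle lineage, and myogenin and MRF4, the product of Myf6, act later in differentiation and in the mature fibre. Runx1 and Ncam1 are induced in muscle after denervation, and Ncam1 is also found on satellite cells. Ankrd1 and Ankrd2 encode ankyrin repeat proteins that bind titin in the sarcomere and respond to stretch. The recombinase acts in myofibres and is not directed at satellite cells. In whole muscle, fewer cells of a type and less RNA per cell cannot be told apart.

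Of the 10 genes, 8 were higher in PGC-1β(i)skm-/- than in control muscle and 2 were lower, whereas 49.6% of all named nuclear genes were higher. Only Ankrd1 had a ratio of PGC-1β(i)skm-/- to control signal of 1.2 or more, a threshold that 1.64% of all genes passed. None had a ratio of 0.8 or less, which 0.652% of all genes had, and none differed by 1.5-fold. The ratios of 1.2 and 0.8 are the thresholds of the study's methods. Subtracting the control from the PGC-1β(i)skm-/- log2 signal gave a median difference of 0.09 over the 10 genes and -0.0006 over all named nuclear genes, whose differences had a standard deviation of 0.12. Without Ankrd1 the median of the remaining genes was 0.08, and without Ankrd1 and Myf5 it was 0.06. Each of the 10 genes is measured by 1 probe set, so that no second measurement of the same transcript is at hand. Among 775 other genes with 2 probe sets, the log2 differences of the pair lay apart by a median of 0.07 and, in 1 gene of 10, by 0.24 or more.

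**Figure D1:**
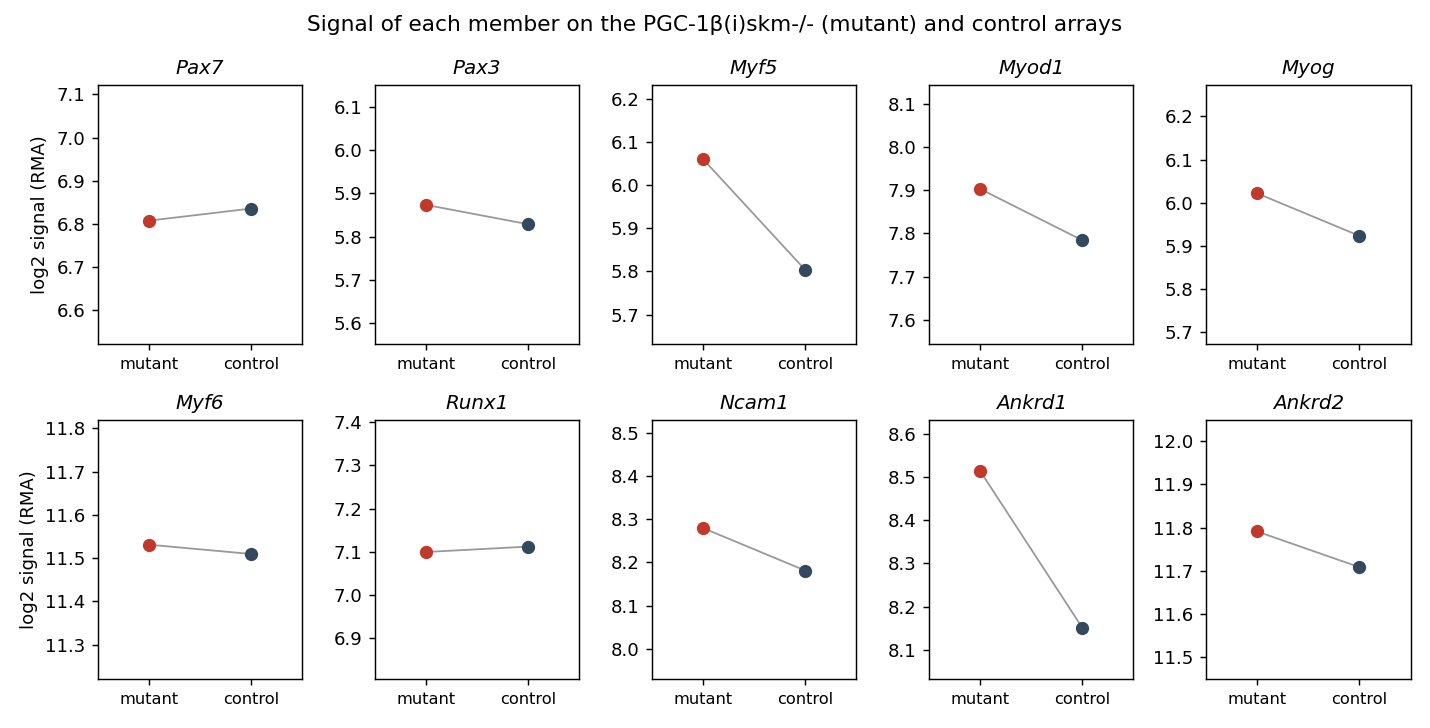
Each panel shows the RMA log2 value (vertical axis) of 1 gene in PGC-1β(i)skm-/- (red, labelled mutant) and in control muscle (blue), with the same span of the axis in every panel and 1 pool of mice per point. The line is steepest for Ankrd1, followed by Myf5, and slopes the other way for Pax7 and Runx1.

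Only the Ankrd1 difference passed a threshold, and Ankrd2 encodes its nearest relative among the 10 genes, so that the sequences before the transcription start of both are shown for comparison. They were read from RefSeq promoter windows of GRCm38.p6, which were found for 6 of the 10 genes, and end before the first annotated base of the gene. Capitals mark the E-box CANNTG, the site read by myogenic helix-loop-helix factors, and CATTCC, the motif of TEAD factors, on either strand. Both genes lie on chromosome 19, Ankrd1 on the minus and Ankrd2 on the plus strand, with the Ankrd1 sequence from chr19:36119845-36120094 and that of Ankrd2 from chr19:42035777-42035916.
Ankrd1: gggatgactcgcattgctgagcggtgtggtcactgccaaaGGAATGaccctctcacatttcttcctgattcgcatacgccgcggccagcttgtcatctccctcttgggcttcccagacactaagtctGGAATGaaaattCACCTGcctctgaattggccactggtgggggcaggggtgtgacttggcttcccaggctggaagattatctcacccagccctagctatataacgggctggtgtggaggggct
Ankrd2: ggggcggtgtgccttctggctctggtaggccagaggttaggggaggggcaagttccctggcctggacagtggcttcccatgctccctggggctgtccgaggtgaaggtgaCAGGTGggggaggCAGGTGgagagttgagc

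The 250 bases before the start of Ankrd1 hold 2 copies of CATTCC, which begin 210 and 123 bases before the start, and 1 E-box of the form CAGGTG at 111 bases. Of 32851 RefSeq windows of this length, 12.6% hold CATTCC on either strand, 66.2% hold CANNTG and 17.2% hold CAGGTG. These shares, like those below, are of windows with 1 copy or more, and windows with 2 copies were not counted. The 140 bases shown for Ankrd2 run from 250 to 111 bases before the transcription start used for its window. They stop there because an annotated transcript of the gene begins at the next base. The bases shown thus lie farther from the start than part of the Ankrd1 sequence. They hold 2 E-boxes, both CAGGTG, which begin 140 and 127 bases before the start, and no CATTCC, and these motifs occur in 46.8% (CANNTG), 10.2% (CAGGTG) and 7.62% (CATTCC) of windows cut to that length. Over the full 250 bases, Ankrd2 has a further E-box, CAGATG, at 96 bases, which is not shown. E-boxes were also found before Myog, at 138 and 12 bases, and before 1 of the 2 starts of Runx1, at 167, 136 and 71 bases. The other start of Runx1 has a CATTCC motif at 55 bases. The RUNX motif TGTGGT, present in 14.0% of windows, was found before Ankrd1 and Myf5, at 226 and 46 bases. The E-box form CAGCTG (13.0% of windows), the ERR motif AAGGTCA (4.08%), the MEF2 motif (2.92%) and the CArG box (1.47%) were found in none of the 7 windows of the 6 genes. The MEF2 motif was searched only as YTAWWWWTAR and the CArG box as CCWWWWWWGG. Here Y is C or T, W is A or T and R is A or G, and sites that depart from these letters were missed. A match shows that the letters are there and not that a factor binds, and the absence of a match concerns these letters in these windows only.

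Among the satellite cell factors, Pax7, which marks quiescent and activated satellite cells, had a log2 signal of 6.81 in PGC-1β(i)skm-/- and 6.84 in control muscle. Pax3, its relative in embryonic limb progenitors, had 5.87 in PGC-1β(i)skm-/- and 5.83 in control muscle. The log2 differences were -0.03 for Pax7 and 0.04 for Pax3, both within the range that holds the middle 90% of genes of like signal, which ran from -0.20 to 0.22 for Pax7 and from -0.18 to 0.22 for Pax3. Genes of like signal are those in the same of 5 equal groups of the named genes by mean signal.

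All 4 myogenic helix-loop-helix factors had a log2 difference above 0, as 49.6% of all named nuclear genes had. The median over the 4 factors was 0.11. Myf5, the first of these factors to appear in the embryo, had a log2 signal of 6.06 in PGC-1β(i)skm-/- and 5.80 in control muscle, a ratio of 1.195 that lies just under the threshold of 1.2. Its log2 difference of 0.26 is the 365th highest of 19936 genes and lies above the middle 90% of genes of like signal, which ends at 0.22. The signals of Myf5 lie close to the median of all probe sets, 6.02 on the PGC-1β(i)skm-/- and 6.00 on the control array, and RMA compresses differences at low signal. The group of like signal that holds Myf5 also had the widest spread of differences, with a standard deviation of 0.1295, against 0.0966 in the group of highest signal.

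Myod1, the determination factor that activates muscle genes in other cell types as well, had 7.90 in PGC-1β(i)skm-/- and 7.78 in control muscle, a log2 difference of 0.12. Myog, which is needed for the differentiation of myoblasts into fibres, had 6.02 in PGC-1β(i)skm-/- and 5.92 in control muscle, a difference of 0.10. Myf6, the factor of this family that prevails in adult fibres, had 11.53 in PGC-1β(i)skm-/- and 11.51 in control muscle, a difference of 0.02. These 3 differences lie within the middle 90% of genes of like signal, which ended at 0.17 for Myod1, 0.22 for Myog and 0.13 for Myf6. Myf5 and Myf6 are neighbours on chromosome 10, and their differences of 0.26 and 0.02 come from separate probe sets.

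Of the genes induced by denervation, Runx1, a transcription factor that limits the wasting of denervated muscle and is also expressed in blood cells, had a log2 signal of 7.10 in PGC-1β(i)skm-/- and 7.11 in control muscle, a difference of -0.01. Ncam1, the neural cell adhesion molecule, had 8.28 in PGC-1β(i)skm-/- and 8.18 in control muscle, a difference of 0.10. Both lie within the range from -0.20 to 0.17 that holds the middle 90% of genes of like signal.

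Ankrd1, which encodes the cardiac ankyrin repeat protein, had a log2 signal of 8.51 in PGC-1β(i)skm-/- and 8.15 in control muscle, 28.6% higher in the mutant. Its log2 difference of 0.36 is the 68th highest of 19936 genes. Ankrd2, which is enriched in slow fibres, had 11.79 in PGC-1β(i)skm-/- and 11.71 in control muscle, a difference of 0.08, or 5.89% higher. The difference of Ankrd1 lies above the middle 90% of genes of like signal, which ends at 0.17, and that of Ankrd2 below the corresponding bound of 0.13. Thus 8 of the 10 genes lie within these ranges, and Ankrd1 and Myf5 lie above them.

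**Figure D2:**
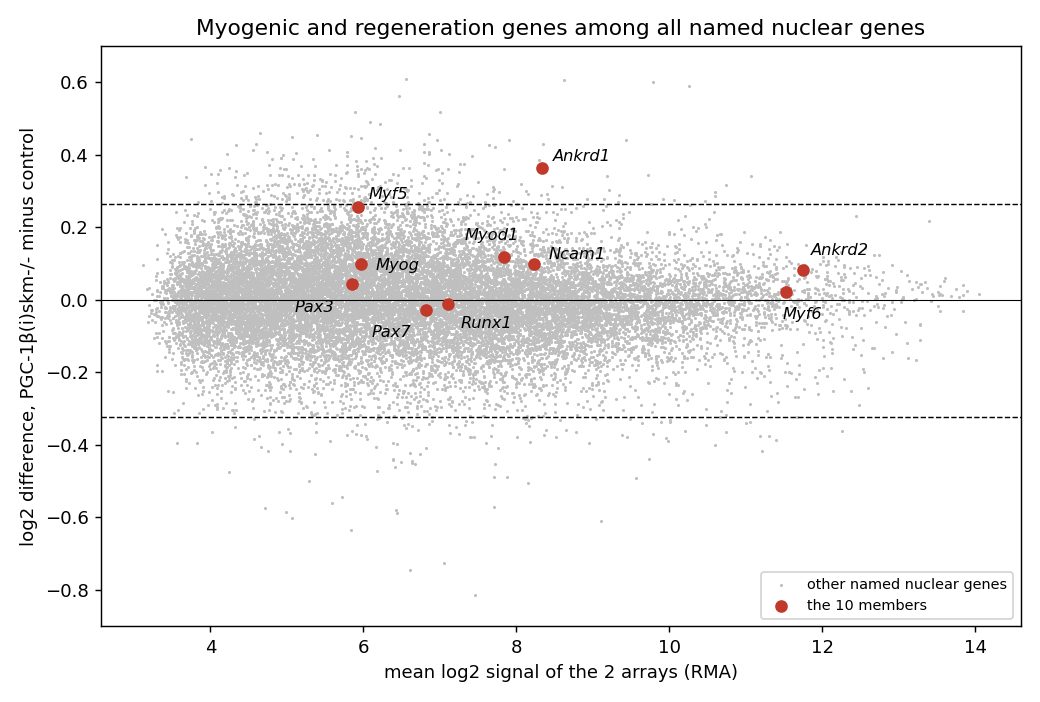
The mean log2 signal of both arrays (horizontal axis) is plotted against the log2 signal in PGC-1β(i)skm-/- minus that in control muscle (vertical axis) for every named nuclear gene, in grey, and for the 10 genes, in red. Dashed lines stand at the ratios 0.8 and 1.2. Ankrd1, at 0.36, lies above the upper dashed line, Myf5, at 0.26, lies just under it, and the remaining 8 lie between -0.03 and 0.12.

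To set these values beside the pathways in which the genes act, 14 lists of further genes were used, with 124 genes of which 116 were measured by a probe set with a single gene name. Of these 116, 3 had a ratio of 1.2 or more (2.59%, against 1.64% of all genes) and none had a ratio of 0.8 or less. A log2 difference above 0 was found for 79 genes (68.1%, against 49.6% of all), and the median difference was 0.02. Because the lists were chosen with earlier results of these data known, these shares describe the lists and test nothing.

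Partners of the myogenic factors differed little between the arrays. The E proteins, which form dimers with them, had log2 differences of -0.0016 for Tcf3, 0.06 for Tcf4 and 0.09 for Tcf12. The 4 measured MEF2 factors and Srf, which act with the myogenic factors on muscle genes, lay between -0.02 (Mef2d) and 0.01 (Mef2c), with Srf at 0.0027 and a median of 0.0014. Of 7 factors of the sine oculis and Eya families, upstream of the myogenic factors in the embryo, 4 were above 0, with a median of 0.0020, and Six2 was at 0.15, Eya4 at -0.12 and Eya1 at 0.06.

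Among 12 inhibitors of myogenic factors, 10 had a log2 difference above 0, against 49.6% of all named nuclear genes. The median was 0.08, and 2 of the 12 had a ratio of 1.2 or more, against 1.64% of all genes. Id2, which binds E proteins and keeps them from DNA, had a log2 signal of 7.87 in PGC-1β(i)skm-/- and 7.56 in control muscle, a ratio of 1.24. Id3, of the same family, had 6.99 in PGC-1β(i)skm-/- and 6.72 in control muscle, a ratio of 1.205. Hes1, an effector of Notch signalling, had a difference of 0.16. These proteins are expressed in many cell types besides muscle, and the cells in which their signal arose were not measured.

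Of 15 further genes of satellite cells and myoblasts, 9 were above 0, none passed a threshold and the median log2 difference was 0.01. The largest differences were those of Megf10, a receptor of satellite cells (0.23), Calcr, the calcitonin receptor of quiescent satellite cells (0.18), and Cd34, which endothelial and stromal cells also express (0.18). Among 9 genes of myoblast fusion, 8 were above 0, against 49.6% of all named nuclear genes, and their median was 0.07. Mymk, encoding the fusion protein myomaker, had a log2 signal of 6.42 in PGC-1β(i)skm-/- and 6.22 in control muscle, and Cav3, encoding caveolin-3, had a difference of 0.14. Jam3, a junctional adhesion molecule, had 6.04 in PGC-1β(i)skm-/- and 6.36 in control muscle, with a ratio of 0.8005 that lies just outside the threshold.

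All 5 developmental sarcomere genes had a higher signal on the mutant array, as 49.6% of all named nuclear genes had. None had a ratio of 1.2 or more, and the median log2 difference was 0.09. Actc1, the cardiac actin that fetal and regenerating fibres express, had 13.50 in PGC-1β(i)skm-/- and 13.28 in control muscle. Myh8, the perinatal myosin heavy chain, had a difference of 0.13 and Myl4, the embryonic light chain, of 0.09. Myh3, the embryonic myosin heavy chain, and Tnnt2 were nearly equal on the arrays, each with a difference of 0.02. Of 9 proliferation genes, 5 were above 0 and the median was 0.02. Mki67 had a difference of -0.27, Ccna2 of 0.22 and Birc5 of -0.17, all with log2 signals below the median of all probe sets. Of 11 growth factors of muscle regeneration, 6 were above 0, with a median of 0.0029, and Mstn, encoding myostatin, a restraint on muscle growth, was at 0.19, Hgf at 0.17 and Tgfb1 at -0.11.

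Beside Runx1 and Ncam1, 13 further genes of the response to denervation were measured, of which 7 were above 0, with a median log2 difference of 0.0060 and none past a threshold. Ampd3, an AMP deaminase, had a log2 signal of 7.92 in PGC-1β(i)skm-/- and 8.22 in control muscle, a difference of -0.30. Gadd45a had a difference of -0.20 and Gdf5 one of 0.16. Runx3 was at -0.05, Cbfb, the partner of the Runx factors, at 0.03, and Runx1t1, which is not itself a Runx gene, at 0.04. Runx2 was not named in the annotation. The relatives of Ncam1 and the enzymes that add polysialic acid to it lay between -0.08 (St8sia2) and 0.08 (L1cam), with St8sia4 at 0.06.

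Beside Ankrd1 and Ankrd2, 8 of 11 genes of titin-associated and mechanosensing proteins were above 0, against 49.6% of all named nuclear genes. The median log2 difference of the 11 was 0.04. Xirp1, encoding an actin-binding protein of myotendinous junctions and injured fibres, had a log2 signal of 9.36 in PGC-1β(i)skm-/- and 9.05 in control muscle, and its ratio of 1.23 is the only one of this list past a threshold. Mustn1 had a difference of 0.14 and Flnc, encoding filamin C, one of 0.10. Of 10 genes of Yap1 and the TEAD factors, 7 were above 0, with a median of 0.02. The largest differences were those of Ccn2 (0.13) and Ccn1 (0.07), both targets of Yap1, as Ankrd1 is in several cell types, and of Tead1 (-0.05).

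**Figure D3:**
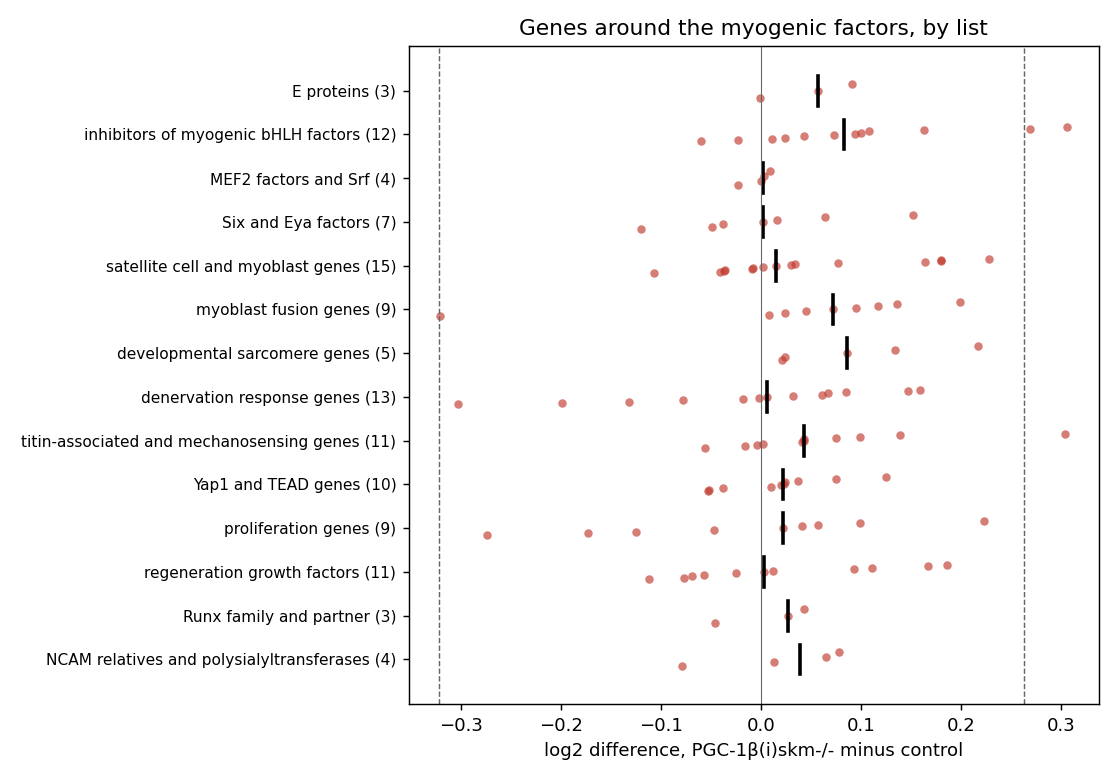
Points give, for each measured gene of 14 lists (vertical axis, with their number), the PGC-1β(i)skm-/- minus the control log2 signal (horizontal axis), with medians as black bars and dashed lines at the ratios 0.8 and 1.2. Id2, Id3 and Xirp1 are the 3 points beyond the upper dashed line, and the medians lie between 0.0014 and 0.09.

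The targeted gene, Ppargc1b, had a log2 signal of 7.06 in PGC-1β(i)skm-/- and 7.87 in control muscle, through a probe set that is not limited to the deleted exon. Myofibre markers were measured at log2 signals of 13.86 and 13.82 for Ckm on the PGC-1β(i)skm-/- and control arrays and a median difference of 0.01 over 8 markers. The largest of these differences were those of Myh1 (-0.16), Mb (-0.06) and Ckm (0.04). Markers of several other cell types differed between the arrays. Of all named nuclear genes, 49.6% were above 0 and 1.64% had a ratio of 1.2 or more. Summed over the list, the linear signal of 10 macrophage markers was 1919 in PGC-1β(i)skm-/- and 1613 in control muscle, and 9 were above 0, with a median log2 difference of 0.26. The 5 with a ratio of 1.2 or more were C1qa (0.37), C1qb (0.36), Mrc1 (0.31), C1qc (0.27) and Csf1r (0.27). The 9 measured fibroblast and tendon markers summed to 11786 in PGC-1β(i)skm-/- and 10417 in control muscle, all 9 were above 0, with a median of 0.17, and Fmod (0.32) and Tnmd (0.28) had a ratio of 1.2 or more, followed by Lum (0.24). The 6 mast cell markers summed to 388 in PGC-1β(i)skm-/- and 318 in control muscle, with a median of 0.16, Cpa3 at 0.61, Mcpt4 at 0.41 and Tpsb2 at 0.25, but Ms4a2 and Cma1 below 0.

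By contrast, all 5 measured Schwann cell markers were lower on the mutant array, where 49.6% of all named nuclear genes were higher. Their linear signals summed to 2417 in PGC-1β(i)skm-/- and 2592 in control muscle. Mbp was at -0.34, the only one with a ratio of 0.8 or less (0.652% of all genes), S100b at -0.13 and Mag at -0.11. The 6 endothelial markers had a median of 0.07, with Cdh5 at 0.16, Tek at 0.14 and Emcn at -0.13. Median differences were 0.01 for 5 smooth muscle markers, with Acta2 at 0.08, Smtn at 0.05 and Cnn1 at -0.02, and 0.0078 for 5 neutrophil markers, with S100a9 at -0.10, Ly6g at 0.09 and S100a8 at -0.07. For 6 T and NK cell markers the median was -0.04, with Cd3g at -0.24, Nkg7 at 0.18 and Cd3e at 0.16. RMA values have no zero, so that no marker can be called absent. The part of these cells in the values of Ankrd1, Myf5, Id2, Id3 and the other genes was not tested.

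**Figure D4:**
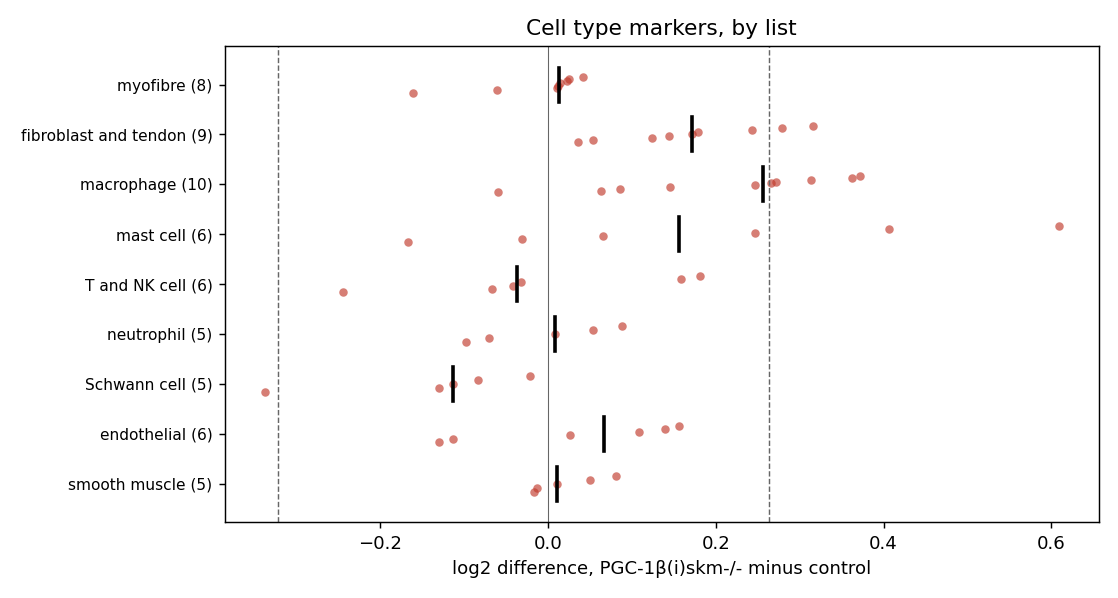
Points give, for each measured marker gene of 9 cell types (vertical axis, with their number), the PGC-1β(i)skm-/- minus the control log2 signal (horizontal axis), with medians as black bars and dashed lines at the ratios 0.8 and 1.2. The medians of macrophage markers (0.26), fibroblast and tendon markers (0.17) and mast cell markers (0.16) are the farthest to the right of 0, and those of Schwann cell (-0.11) and T and NK cell markers (-0.04) lie to its left.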

How the data were processed

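The authors hybridized labelled cDNA from 150 ng of RNA to Affymetrix Mouse Gene 1.0 ST arrays, read the scans with GeneChip Command Console 3.2 and ran RMA in Expression Console 1.1 for a log2 signal per probe set. RMA corrects background, applies quantile normalization and summarizes probes. Both deposited arrays were used. The genome build of the array design was not given in the sources used here. Quantile normalization would hide a change of all genes together, and the number of arrays limits the precision.

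Probe sets were named through a platform annotation, and symbols were updated through Entrez IDs in the RefSeq annotation of GRCm38.p6. Of 35556 probe sets, 21789 had 1 symbol, of which 21698 matched RefSeq, 1621 had several and were left out, and 12146 stay unnamed. For genes with several probe sets, that of highest mean signal was used. Log2 differences were taken as PGC-1β(i)skm-/- minus control, with no filter on signal.

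The 10 genes, the gene lists and the thresholds were chosen with earlier results of these data known. All 10 genes are described, and of each list the 3 genes of largest absolute difference and every gene past a threshold. Alternatives were the mean of probe sets, subtraction of the median or of a loess curve (span 0.3), a minimum mean signal of 6 or 7, any probe set, and other thresholds. Calculations used Python 3.11.15, pandas 2.3.3, numpy 2.4.6, statsmodels 0.14.6 and matplotlib 3.10.9, and were tested on simulated data. The simulated differences were larger than those of the 10 genes, and the simulated noise was smaller than the spread of all genes. Calls near a threshold were therefore not tested by the simulation.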

Additional observations from a re-analysis of the deposited data

How the results depend on the processing

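Over 50 alternative values of the 10 log2 differences, of their median and of the counts past a threshold, 49 moved by less than the standard deviation of genes of like signal or left the count as it was. The exception was the threshold of 1.5-fold, at which 0 of the 10 genes were higher, in place of 1 at a ratio of 1.2. Subtraction of a loess curve or of the median of all genes moved the differences of the 10 genes by at most 0.0203 on the log2 scale, with Pax3 at 0.0244 after the loess curve in place of 0.0447, and the mean of probe sets gives the same values, since each gene has 1. For the same reason, the counts over any probe set could not differ. The standard deviations used as a bound, from 0.0966 to 0.1295, were far larger than these shifts, so that staying within them shows little. At 1/1.2 instead of 0.8, still 0 of the 10 genes were lower. No paired analysis was possible because each genotype has 1 array. The dim signals of Pax3, Myf5 and Myog, near the median of all probe sets, limit what their differences can show.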

Other observations

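Muscle microRNAs act on some of the 10 genes, with miR-1 and miR-206 known to repress Pax7 in mice, and their host transcripts are activated by myogenic factors. The genes given here were chosen after their values were seen. Mir1a-2 had a log2 signal of 5.67 in PGC-1β(i)skm-/- and 6.03 in control muscle, a ratio of 0.779. It is the only one of 300 microRNA genes named on the arrays with a ratio of 0.8 or less, which 0.652% of all genes had. Mir1a-1 had a log2 difference of -0.25, at 4.19 in PGC-1β(i)skm-/- and 4.44 in control muscle. Mir133a-1 had 7.30 in PGC-1β(i)skm-/- and 7.53 in control muscle, and Mir133a-2 had 5.99 in PGC-1β(i)skm-/- and 6.13 in control muscle. All 4 of these genes were thus lower on the mutant array, whereas Mir206 had a log2 signal of 3.40 in PGC-1β(i)skm-/- and 3.39 in control muscle. The lowest mean signal of any named nuclear gene is 3.12, so that Mir206 lies near the floor, with little room for a decrease. Mir1a-1 is dim as well and lies in the group of lowest signal, which ends at 4.78. Mir31 and Mir489, also looked up, had log2 differences of 0.12 and -0.02. Of the 300 microRNA genes, 145 had a difference below 0, the median was 0.0031 and the middle 90% ran from -0.17 to 0.21. Mir133a-2, with a difference of -0.14, lies within that range, and Mir1a-1, Mir1a-2 and Mir133a-1 lie below it. Whether these probe sets read the primary transcript or the short mature RNA was not tested.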
